A study of Mus musculus with 6 samples.

Results

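The genes described here carry out or prepare DNA synthesis in S phase. They were a list of 30 named genes, and every probe whose platform symbol was one of them was taken. This gave 58 of the 45281 probes on the array, and no gene was reached through an older alias. Of the 30 genes, 24 were detected (a probe's detection p-value below 0.05) by 2 or more of the 6 arrays and were tested beside all other features, 12492 in all.

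The cells were CD11b+Gr-1high cells from mouse spleen, a surface phenotype of neutrophils and of the granulocytic cells that accumulate with tumors. All mice had an H-2b genetic background. The 3 groups were wild type mice with no tumor, IRF8 KO mice with no tumor, and wild type mice bearing a tumor produced by the AT-3 cell line, a mouse mammary carcinoma line, with 2 arrays each. IRF8 is a transcription factor that directs myeloid precursors toward monocytes and dendritic cells and restrains granulocyte output. Mouse ages, the number of animals behind an array and the part of Irf8 that was deleted are not given in the sources used here, so p-values measure only the spread between these arrays.

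DNA replication begins when ORC, Cdc6 and Cdt1 load the Mcm2 to Mcm7 ring, the core of the replicative helicase, onto origins. Cdc45 and the GINS complex turn the loaded ring into a moving helicase at the start of S phase, and clamp, clamp loader and polymerases copy the strands behind it. Ribonucleotide reductase, thymidylate synthase and thymidine kinase supply the deoxynucleotides, while the CAF-1 complex and Uhrf1 rebuild chromatin and DNA methylation on the copies. Many of these genes are classical targets of E2F transcription factors, and mature neutrophils are cells that have left the cell cycle.

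Mean raw signal ran from 265 to 421 per array and 31.0% to 38.4% of probes were detected. The AT-3 arrays were the dimmest, at 284 and 265, so levels are given below as normalized log2 signal unless raw signal is named. Irf8 itself read 6.86 and 6.70 in wild type, 4.85 and 5.34 in IRF8 KO and 8.82 and 8.09 with an AT-3 tumor. It was lower by 1.69 ± 0.31 (SE, n = 2 against 2, adjusted p = 0.0063 by limma) in IRF8 KO, although its probe was still detected on both KO arrays, with detection p-values of 0.0289 and 0.00107. S100a8, a gene with abundant transcripts in neutrophils, had raw signals between 27001 and 35233 on all 6 arrays, and Itgam, which encodes CD11b, was detected on all 6. No probe was named for Ly6g, which encodes the Gr-1 antigen.

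The start regions of 25 of the 30 genes were matched in RefSeq (GRCm38.p6), as 28 windows running from 250 bases before to 50 bases after a transcription start. They were searched on both strands for TTTCGCGC, TTTGGCGC, TTTCCCGC and TTTGCCGC, which are forms of the E2F motif, and matches may overlap. A match lay in 9 of the 28 windows (32.1%) and in 744 of all 32851 windows (2.26%). The 9 genes with a match were Cdc6, Cdt1, Mcm3, Mcm5, Mcm6, Mcm7, Pola1, Rfc3 and Uhrf1. The letters CCAAT, searched the same way, lay in 17 of the 28 windows (60.7%) and in 37.4% of all windows. A match is a run of letters only, not a measured site. Below are the windows of the 3 E2F-matched genes with the largest rise in IRF8 KO among those that passed the test described below. The window of Ccne1, the tested member with the smallest difference between IRF8 KO and wild type, is printed too and held no such match. Because the windows were picked by those differences, they do not show how matches relate to levels. Tyms, Tk1 and Rrm1 rose in IRF8 KO with no match, and Cdc6 and Mcm7 held a match but did not pass. Uhrf1 has 2 windows in the table, and the other one held no E2F match. Each is printed 5′ to 3′ on the gene's own strand, with E2F matches in capitals.
Uhrf1, chr17:56304063-56304362, strand plus: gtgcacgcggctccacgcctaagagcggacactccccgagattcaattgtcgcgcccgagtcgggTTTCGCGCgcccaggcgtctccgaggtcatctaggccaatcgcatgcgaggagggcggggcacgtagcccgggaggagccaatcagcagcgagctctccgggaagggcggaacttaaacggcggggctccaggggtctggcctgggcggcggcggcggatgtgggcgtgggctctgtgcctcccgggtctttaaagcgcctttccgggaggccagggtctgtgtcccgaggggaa
Mcm5, chr8:75109259-75109558, strand plus: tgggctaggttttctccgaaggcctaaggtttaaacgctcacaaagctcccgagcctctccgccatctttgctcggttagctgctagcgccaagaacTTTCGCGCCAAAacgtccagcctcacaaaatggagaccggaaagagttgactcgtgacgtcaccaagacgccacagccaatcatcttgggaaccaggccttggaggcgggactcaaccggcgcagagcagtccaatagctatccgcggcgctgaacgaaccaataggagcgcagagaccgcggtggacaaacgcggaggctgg
Mcm6, chr1:128359656-128359955, strand minus: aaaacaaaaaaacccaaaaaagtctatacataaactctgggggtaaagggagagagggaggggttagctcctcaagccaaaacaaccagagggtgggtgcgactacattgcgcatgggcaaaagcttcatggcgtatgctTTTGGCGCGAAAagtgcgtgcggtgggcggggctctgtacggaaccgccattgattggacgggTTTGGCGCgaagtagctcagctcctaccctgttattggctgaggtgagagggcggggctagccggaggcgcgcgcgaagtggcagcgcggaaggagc
Ccne1, chr7:38107441-38107740, strand minus: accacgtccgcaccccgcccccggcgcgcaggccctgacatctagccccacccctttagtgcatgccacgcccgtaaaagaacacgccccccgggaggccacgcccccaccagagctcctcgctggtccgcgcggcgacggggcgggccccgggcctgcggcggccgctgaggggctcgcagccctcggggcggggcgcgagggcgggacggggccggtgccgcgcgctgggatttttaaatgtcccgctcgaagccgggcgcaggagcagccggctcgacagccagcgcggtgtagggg

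Many S phase genes were higher in IRF8 KO than in wild type cells. Those called belonged to helicase loading, synthesis at the fork, nucleotide supply and chromatin, with Cdc45 alone for helicase activation and neither E-type cyclin. The sliding clamp Pcna and the polymerase alpha primase genes Pola1 and Prim1 could not be tested. Of the 24 tested genes, 16 rose, 0 fell and 8 did not pass the test (limma, Benjamini-Hochberg adjusted p under 0.05 over all 12492 features). Over all features, 15.4% were called higher and 16.5% lower in that comparison. For 20 of the 24 genes, and for 34.5% of all features, IRF8 KO read higher than wild type on every array. The fitted folds of the 16 ran from 3.26 for Cdc45 to 21.6 for Uhrf1. Without background correction the same 16 differences were smaller, 0.82 to 2.84 on the log2 scale, with a median of 1.18 over the 24, and 8 passed. The median difference of the 24 was 2.30 on the log2 scale, or 2.15 with the 7 genes that neither wild type array detected held at their bound, beside -0.01 over all features. The 24 passed a detection filter that genes low everywhere could not pass, so their count describes those that passed and not all 30. The 7 genes that neither wild type array detected passed it only through the other groups, so a fall was hardly open to them. Of the 10 members detected on every array at p under 0.01, 8 were called higher and 0 lower in IRF8 KO. Of the 7057 features so detected, 1516 were called higher and 1493 lower.

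With an AT-3 tumor, 17 of the 24 rose, 0 fell and 7 did not pass, with 17.3% of all features called higher and 17.6% lower. Both tumor arrays lay above both wild type arrays for all 24, and for 35.4% of all features. For the 7 genes that neither wild type array detected, the filter was passed through the other groups alone, so that order was close to given. Of the 10 members detected on every array at p under 0.01, 8 were called higher and 0 lower. Of the 7057 features so detected, 1701 were called higher and 1497 lower. Fitted folds ran from 2.98 for Cdc45 to 21.6 for Uhrf1, and the median difference was 2.48, or 2.33 with the same 7 genes at their bound. Without background correction the 17 differences were 0.89 to 3.13, the median over the 24 was 1.14 and 9 passed. The genes called were the same 16 plus Gins1. Both comparisons use the same pair of wild type arrays, so they are not independent of each other. In bulk RNA, more cells in S phase and more of these transcripts per cell cannot be told apart.

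**Figure D1:**
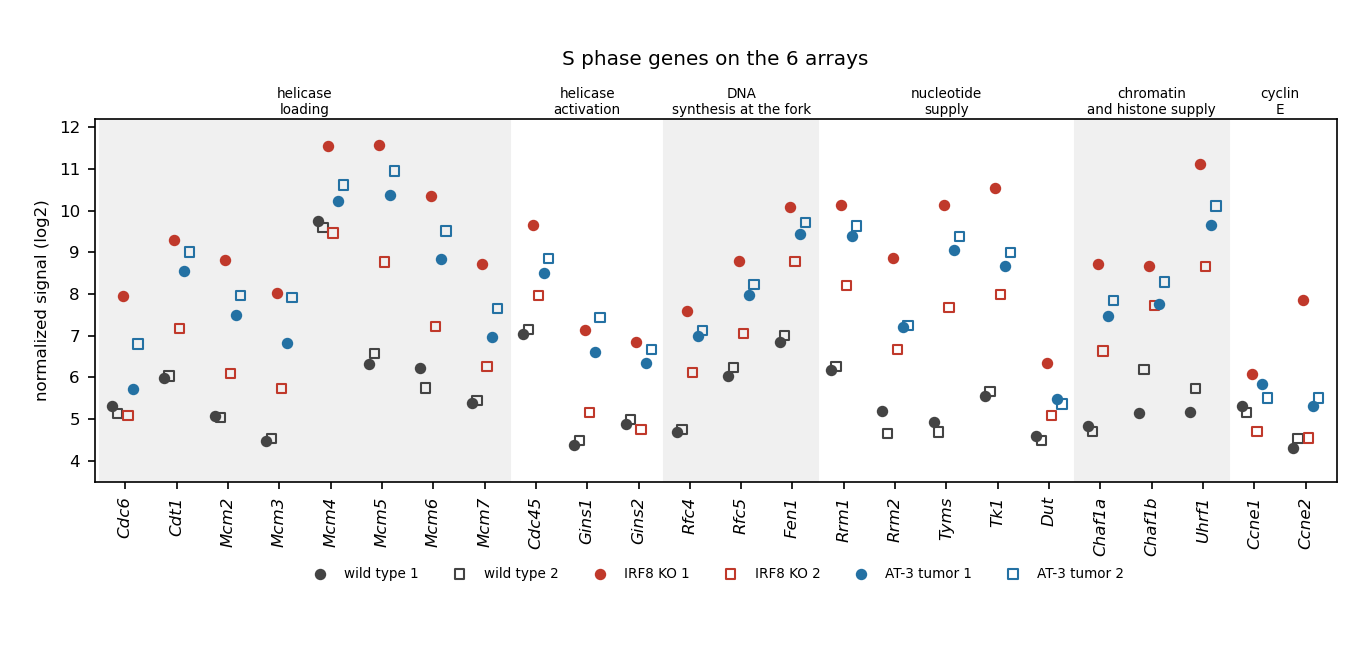
Normalized log2 signal of the 24 tested S phase genes (x axis, grouped by role) on each of the 6 arrays; filled circles are replicate 1 and open squares replicate 2 of wild type (grey), IRF8 KO (red) and AT-3 tumor (blue). IRF8 KO array 1 is the highest of the 6 for 23 genes, and both AT-3 arrays lie above IRF8 KO array 2 for all 24.

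The IRF8 KO arrays stood far apart for these genes. By the probe that stood for each gene, array 1 read higher than array 2 for 24 of 24. The differences ran from 0.94 (Chaf1b) to 3.30 (Ccne2) on the log2 scale with a median of 2.11. The gap was over 1 for 23 of 24, against 5.27% of all features. Between the wild type arrays the gaps of the same genes ran from -1.06 to 0.54, and between the AT-3 arrays from -1.08 to 0.34. Array 1 minus array 2 was over 1 for no member in either group, and for 0.608% and 2.26% of all features. KO array 1 was the highest of the 6 arrays for 23 members, against 17% of all features. Set against the wild type mean, the median member stood 3.29 higher on KO array 1 and 1.19 higher on KO array 2. Array 1 also read higher than array 2 under the other background and scaling settings run, for 24 of 24 genes.

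**Figure D2:**
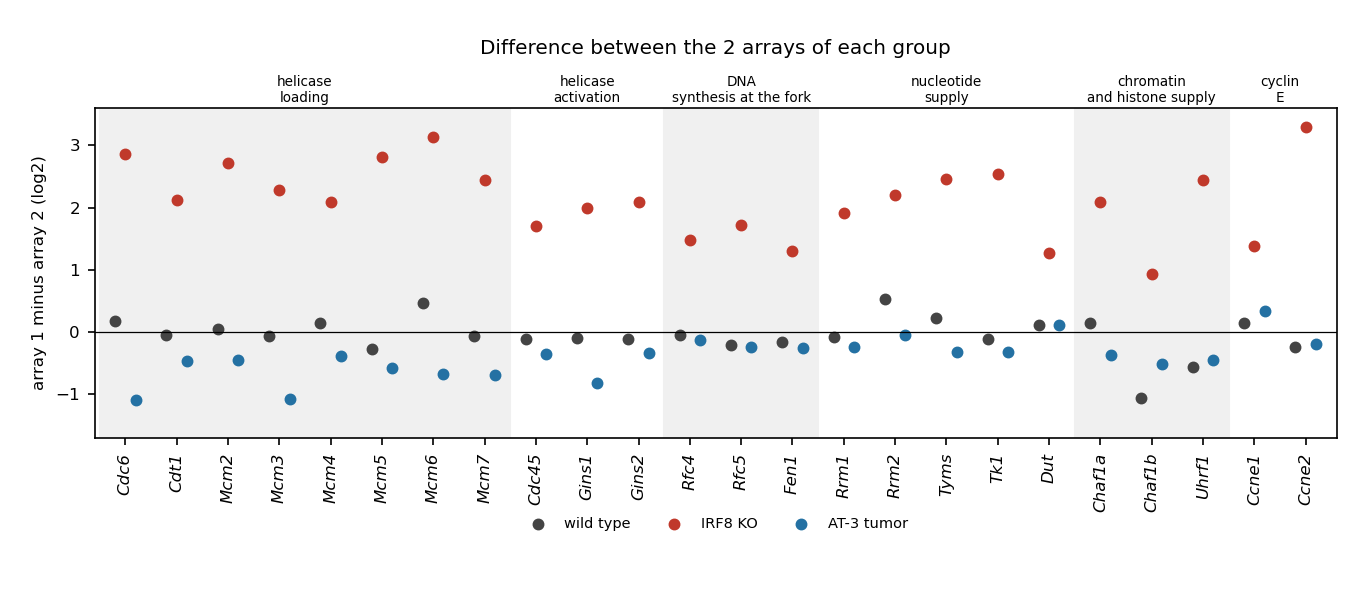
Difference between array 1 and array 2 of each group (log2, y axis) for the 24 tested S phase genes. The IRF8 KO differences (red) lie between 0.94 and 3.30, while wild type (grey) differences lie between -1.06 and 0.54 and AT-3 tumor (blue) differences, with a median of -0.36, between -1.08 and 0.34.

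Detection of the members differed between the arrays too. Any probe of a member was detected for 16 of the 30 genes on each wild type array, 26 on KO array 1, 22 on KO array 2 and 24 on each AT-3 array. Of all probes, 32.6% and 32.9% were detected in wild type, 38.4% and 34.9% on KO arrays 1 and 2, and 31.1% and 31.0% with a tumor. KO array 1 thus had the highest detected share over all probes as well. In all, 6 of the 30 genes were not tested. Of these, Pcna, the sliding clamp of the replication fork, and Rfc3, a clamp loader subunit, were detected on KO array 1 alone. Pcna had a raw signal of 166.3 there (detection p-value of 0.00107) and 130.6 on KO array 2 (detection p-value of 0.27). Rfc3 had raw signals of 160.7 (detection p-value of 0.00107) and 124.5 (detection p-value of 0.574). Pola1 and Prim1, of the polymerase alpha primase complex, Gmnn, the inhibitor of Cdt1, and Slbp, the histone mRNA binding protein, were detected on no array. On KO arrays 1 and 2 the detection p-values were 0.112 and 0.545 for Pola1, 0.514 and 0.766 for Prim1, 0.129 and 0.669 for Gmnn, and 1 and 0.996 for Slbp. The raw signals behind them were 121.7 and 125.0, 111.9 and 119.9, 120.9 and 122.4, and 90 and 107.1 in that order. Normalized, the KO arrays read 4.70 and 4.46 for Pola1, 4.46 and 4.37 for Prim1, 4.68 and 4.41 for Gmnn, 4.2 and 4.23 for Slbp, 5.67 and 4.58 for Pcna and 5.57 and 4.45 for Rfc3. Apart from Pcna and Rfc3 on KO array 1, these signals were not above the array's background, so nothing follows for the level of these transcripts there.

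Among the genes that load the helicase, Mcm5 had the largest fitted difference. Its log2 signal was 6.31 and 6.57 in wild type, 11.58 and 8.76 in IRF8 KO and 10.36 and 10.95 with a tumor, so both other groups lay above wild type without overlap. This was 13.3-fold higher in IRF8 KO (3.73 ± 0.78, SE, adjusted p = 0.011) and 18.5-fold higher with a tumor (4.21 ± 0.78, adjusted p = 0.0069). The raw signals of Mcm5 on KO arrays 1 and 2 were 3800.9 and 670.5, both with a listed detection p of 0. Mcm6 read 6.22 and 5.75 in wild type, 10.36 and 7.22 in IRF8 KO and 8.83 and 9.51 with a tumor. Its rise was 2.81 ± 0.87 (adjusted p = 0.0453) in IRF8 KO, near the threshold, and 3.19 ± 0.87 (adjusted p = 0.0272) with a tumor. Raw Mcm6 signals on the KO arrays were 1777.7 and 301.9, each with detection p of 0. Tested probe by probe, its 2 other probes were higher by 2.43 (adjusted p = 0.0709) and 2.55 (adjusted p = 0.0555) in IRF8 KO, which did not pass, and both passed with a tumor.

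Mcm2, Mcm3 and Cdt1, the loader of the Mcm ring, also rose in both groups. Cdt1 read 5.99 and 6.04 in wild type, 9.30 and 7.17 in IRF8 KO and 8.55 and 9.01 with a tumor. The differences were 2.22 (adjusted p = 0.029) and 2.77 (adjusted p = 0.0123). Mcm2 read 5.08 and 5.04 in wild type, 8.81 and 6.09 in IRF8 KO and 7.51 and 7.96 with a tumor, differences of 2.39 (adjusted p = 0.0465) and 2.67 (adjusted p = 0.0295). Mcm3, detected on neither wild type array, read 8.02 and 5.74 in IRF8 KO and 6.83 and 7.91 with a tumor. It was at least 3.77-fold higher in IRF8 KO (adjusted p = 0.037) and at least 5.3-fold higher with a tumor (adjusted p = 0.0175). On the KO arrays the raw signals were 938.6 and 294.2 for Cdt1 (detection p of 0 on both), 713.1 (0) and 193.7 (0.00107) for Mcm2, and 465.4 (0) and 174.1 (0.00107) for Mcm3. None of the groups overlapped wild type for these 3 genes.

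Cdc6, Mcm4 and Mcm7 did not pass the test in either comparison. Mcm4 was bright in every group, at 9.74 and 9.59 in wild type, 11.55 and 9.46 in IRF8 KO and 10.23 and 10.61 with a tumor. KO array 2 lay just below both wild type arrays and KO array 1 far above them, so the groups overlapped (0.84 ± 0.59, adjusted p = 0.322). The raw signals of Mcm4 on the KO arrays were 3693.8 and 995.4, both with detection p of 0. Cdc6, which recruits the ring to origins, read 5.31 and 5.14 in wild type, 7.94 and 5.08 in IRF8 KO and 5.72 and 6.80 with a tumor (adjusted p = 0.279 and 0.371). Its raw KO signals were 448.9 (detection p of 0) and 147.2 (detection p-value of 0.0203), and KO array 2 again read no higher than wild type. Another Cdc6 probe, detected on KO array 2 alone and so not tested, went the other way between the KO arrays. It read 4.57 (raw signal 116.8, detection p-value of 0.26) and 4.93 (raw signal 142.3, detection p-value of 0.0374). Mcm7 did separate from wild type, at 5.39 and 5.45 against 8.71 and 6.27 in IRF8 KO and 6.96 and 7.65 with a tumor, with adjusted p of 0.0576 and 0.0715. Raw Mcm7 signals were 675.5 (detection p of 0) and 205.4 (detection p-value of 0.00107) on the KO arrays.

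Of the genes that activate the helicase, Cdc45 rose in both groups. It read 7.05 and 7.16 in wild type, 9.66 and 7.96 in IRF8 KO and 8.50 and 8.86 with a tumor, which is 3.26-fold (adjusted p = 0.0371) and 2.98-fold (adjusted p = 0.0444) higher. Raw Cdc45 signals on the KO arrays were 1152.3 and 429.6, both with detection p of 0. Gins1, a GINS subunit, rose with a tumor alone by the threshold, being undetected in wild type and at least 4.19-fold higher (adjusted p = 0.0149). In IRF8 KO it read 7.15 and 5.16, against 4.38 and 4.48 in wild type and 6.62 and 7.44 with a tumor (adjusted p = 0.0652 for IRF8 KO). Its difference between AT-3 tumor and IRF8 KO did not pass the test, so the 2 groups are not shown to differ. Gins2, another GINS subunit, read 4.88 and 5.0, then 6.85 and 4.76, then 6.34 and 6.67 in the same group order, with differences of 0.86 (adjusted p = 0.309) and 1.56 (adjusted p = 0.0786). Raw KO signals were 301.5 (detection p of 0) and 149.7 (detection p-value of 0.0107) for Gins1, and 264.1 (0) and 136.9 (0.0983) for the brightest Gins2 probe. A second Gins2 probe was detected on KO array 2 (raw signal 141.7, detection p-value of 0.0385). Tested probe by probe, that second probe was higher by 1.23 (adjusted p = 0.121) in IRF8 KO and by 2.00 (adjusted p = 0.0252) with a tumor. The remaining tested Gins2 probe was higher by 1.03 (adjusted p = 0.204) and 1.35 (adjusted p = 0.103). All tested Gins2 probes thus read higher with a tumor, but the brightest and the remaining probe did not pass.

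At the fork, all 3 tested genes rose in both groups. Fen1, the flap endonuclease that trims Okazaki fragments, read 6.84 and 7.00 in wild type, 10.08 and 8.78 in IRF8 KO and 9.44 and 9.71 with a tumor. It was 5.68-fold (adjusted p = 0.00394) and 6.30-fold (adjusted p = 0.00347) higher. Rfc4, a clamp loader subunit, was undetected in wild type and read 7.59 and 6.12 in IRF8 KO and 7.00 and 7.13 with a tumor. It was at least 3.71-fold higher in IRF8 KO (adjusted p = 0.01) and at least 4.30-fold higher with a tumor (adjusted p = 0.00699). For Rfc5, of the same complex, the brighter probe rose by 1.78 (adjusted p = 0.0328) and 1.97 (adjusted p = 0.0212), on readings of 6.04 and 6.24 in wild type, 8.79 and 7.06 in IRF8 KO and 7.99 and 8.23 with a tumor. Its second probe differed by only 0.09 and 0.14 and did not pass. That probe read 4.77 to 5.05 across the arrays, near background, and was undetected on wild type array 1 and AT-3 array 2. It can neither back nor contradict the brighter probe, on which the rise of Rfc5 rests alone. The raw KO signals were 1492.4 and 674.1 for Fen1 and 702.7 and 280.2 for Rfc5, with detection p of 0, and 377.8 (0) and 195.5 (0.00107) for Rfc4.

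The nucleotide supply genes held some of the largest differences. Tyms, thymidylate synthase, was undetected in wild type at 4.93 and 4.69, and read 10.14 and 7.68 in IRF8 KO and 9.07 and 9.38 with a tumor. It was at least 15.4-fold higher in IRF8 KO (adjusted p = 0.00451) and at least 19.2-fold higher with a tumor (adjusted p = 0.00368). Its second probe gave smaller rises of 1.95 and 1.73 that passed too. Tk1, the thymidine kinase of cycling cells, read 5.55 and 5.66 in wild type, 10.53 and 8.0 in IRF8 KO and 8.67 and 8.99 with a tumor. It was 12.7-fold (adjusted p = 0.00775) and 9.37-fold (adjusted p = 0.012) higher, while its second probe differed by 1.48 and 0.88 and passed in IRF8 KO only. The raw KO signals were 1541.7 and 373.4 for Tyms and 1992.2 and 439.5 for Tk1, all with detection p of 0.

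Both subunits of ribonucleotide reductase rose. Rrm1 read 6.17 and 6.26 in wild type, 10.13 and 8.21 in IRF8 KO and 9.39 and 9.63 with a tumor (7.76-fold, adjusted p = 0.00671, and 9.84-fold, adjusted p = 0.0046). Rrm2, the subunit whose level follows the cell cycle, read 5.20 and 4.66, then 8.87 and 6.67, then 7.20 and 7.25 (7.13-fold, adjusted p = 0.0134, and 4.91-fold, adjusted p = 0.0269). Dut, which removes dUTP, did not pass, with differences of 1.18 (adjusted p = 0.0561) and 0.87 (adjusted p = 0.124), and was undetected in wild type. It read 4.60 and 4.49 there, 6.36 and 5.09 in IRF8 KO and 5.47 and 5.36 with a tumor. Raw KO signals were 1532.8 and 493.6 for Rrm1 (detection p of 0 on both), 736.1 (0) and 237.1 (0.00107) for Rrm2, and 214.6 (0) and 147.3 (0.0203) for Dut.

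All 3 tested chromatin genes rose. Uhrf1, which brings the maintenance DNA methyltransferase to newly copied DNA, had the largest fitted difference of the 24, but Tyms, which has only a lower bound, cannot be ranked against it. Its log2 signal was 5.17 and 5.74 in wild type, 11.11 and 8.67 in IRF8 KO and 9.66 and 10.11 with a tumor. Each of the other groups lay wholly above wild type, 21.6-fold higher in IRF8 KO (4.44 ± 0.70, SE, adjusted p = 0.00371) and 21.6-fold higher with a tumor (4.43 ± 0.70, adjusted p = 0.0039). The raw signals of Uhrf1 on the KO arrays were 2759.4 and 632.4, both with detection p of 0. Chaf1a, the large CAF-1 subunit, was undetected in wild type and read 8.73 and 6.64 in IRF8 KO and 7.48 and 7.85 with a tumor. It was at least 6.59-fold (adjusted p = 0.00978) and at least 6.51-fold (adjusted p = 0.00964) higher. Chaf1b, its partner, read 5.14 and 6.20, then 8.66 and 7.72, then 7.77 and 8.29, and was 5.75-fold (adjusted p = 0.00547) and 5.14-fold (adjusted p = 0.00709) higher. It had the smallest gap between the KO arrays, with raw signals of 655.3 and 380.9 (detection p of 0 on both), while Chaf1a had 683.2 (0) and 234.3 (0.00107).

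The E-type cyclins, which activate Cdk2 at the start of S phase, did not pass in either comparison. Ccne1 read 5.31 and 5.16 in wild type, 6.09 and 4.71 in IRF8 KO and 5.84 and 5.51 with a tumor (0.16, adjusted p = 0.804, and 0.44, adjusted p = 0.454). Ccne2 was undetected in wild type and read 4.30 and 4.54 there, 7.85 and 4.55 in IRF8 KO and 5.32 and 5.51 with a tumor (adjusted p = 0.172 and 0.424). Both were detected on KO array 1 but not on KO array 2. The raw signals were 193.1 (detection p of 0) and 135.2 (detection p-value of 0.129) for Ccne1, and 428.9 (0) and 129.4 (0.317) for Ccne2.

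**Figure D3:**
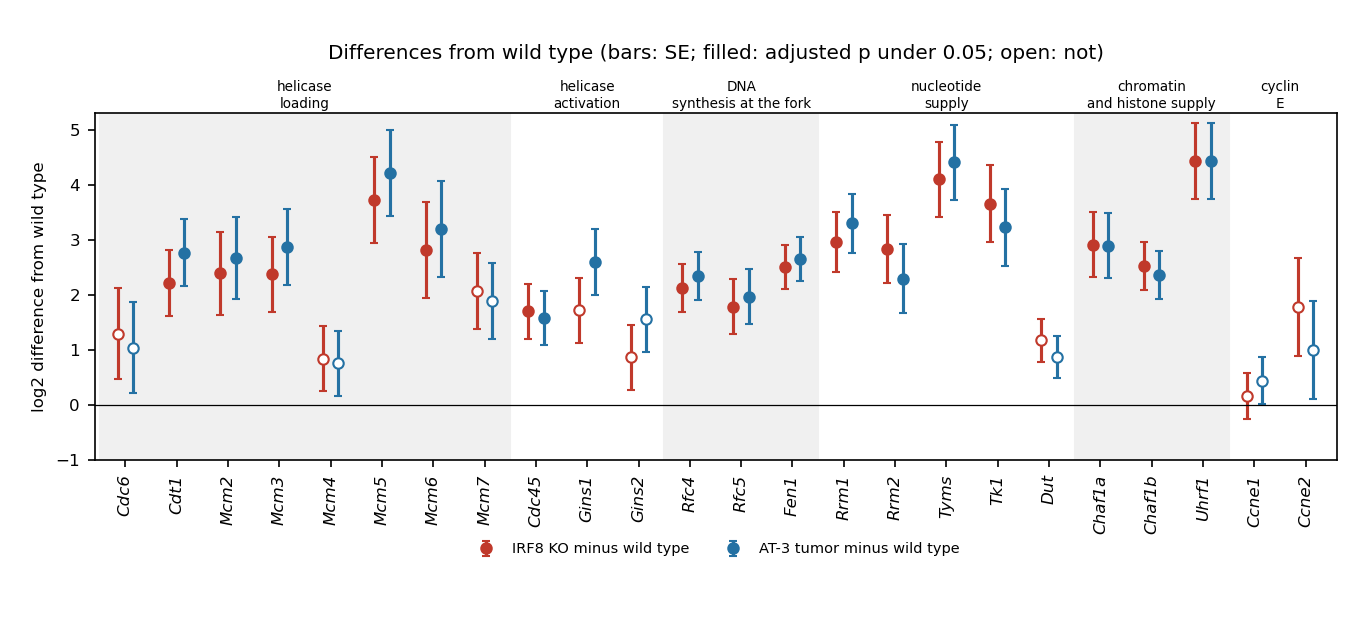
Difference from wild type on the log2 scale (y axis) with its SE (bars) for the 24 tested S phase genes in IRF8 KO (red) and with an AT-3 tumor (blue); filled points passed adjusted p under 0.05. Uhrf1, Tyms and Mcm5 have the highest points in both comparisons, and Ccne1 lies nearest to 0 in IRF8 KO.

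How many genes were called depended on the arrays kept, for these genes and over all features alike. Fewest passed with a wild type array left out. With KO array 1 left out, the median difference of the 24 in IRF8 KO was 1.19, and with KO array 2 left out it was 3.29. With wild type array 1 or 2 left out, the medians were 2.15 or 2.31 in IRF8 KO and 2.56 or 2.65 with a tumor. With AT-3 array 1 or 2 left out, the tumor median was 2.70 or 2.28. A lone array is then assumed to vary like the other groups, so counts of calls from such fits are not read here. They appear only as ranges where the processing settings are compared.

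AT-3 tumor and IRF8 KO did not differ past the threshold for any of the 24 genes. Over all features, 6.16% were called higher with a tumor and 5.34% lower. The count was 0 in both directions by limma, 0 at an unadjusted p under 0.05, and the lowest adjusted p was 0.386. Differences ran from -0.79 to 0.88 with standard errors of 0.39 to 0.89, so differences of that size could not be resolved. The pair of KO arrays enclosed the tumor arrays for most members: both AT-3 arrays lay between KO array 2 and KO array 1 for 23 of 24 genes, against 6.56% of all features. Both lay above KO array 2 for all 24, against 37.5%. Gins1 was the exception, with AT-3 array 2 above KO array 1.

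Against each KO array alone, the order was opposite. With KO array 1 left out, the median difference of the 24 between AT-3 tumor and KO array 2 was 1.04, beside -0.02 over all features. With KO array 2 left out, the median difference between AT-3 tumor and KO array 1 was -0.93, beside -0.02 over all features. Part of this order moved with the scaling. Without scaling between the arrays, both AT-3 arrays lay above KO array 2 for 12 of 24 genes, not 24, with the median of all features at -0.83 for AT-3 tumor minus IRF8 KO.

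The rest of the replication machinery was read from a list of 45 further genes, 38 of them tested. In IRF8 KO 22 rose and 0 fell (median 1.49), beside 15.4% higher and 16.5% lower over all features. With a tumor 24 rose and 0 fell (median 1.64), beside 17.3% and 17.6%. Cdc7, the kinase that starts origins, rose by 3.75 (adjusted p = 0.00244) in IRF8 KO and 2.75 (adjusted p = 0.00783) with a tumor. Clspn, a fork and checkpoint adaptor, was at least 10.5-fold (adjusted p = 0.00714) and at least 8.91-fold (adjusted p = 0.00885) higher. Lig1, which joins Okazaki fragments, rose by 3.20 (adjusted p = 0.0178) and 3.25 (adjusted p = 0.0158). These genes too read higher on KO array 1, by a median of 1.38.

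Regulators of the G1 to S transition were less uniform. Of 25 tested, 8 rose and 3 fell in IRF8 KO (median 0.61), and 6 rose and 3 fell with a tumor, beside 15.4% higher and 16.5% lower, and 17.3% and 17.6%, over all features. These shares were not tested against the background. E2f1, an activator of S phase genes that was picked after its values were seen, rose by 2.11 (adjusted p = 0.00467) in IRF8 KO and 1.52 (adjusted p = 0.0153) with a tumor. Cdk2, the partner of cyclin E, rose by 2.56 (adjusted p = 0.000771) and 1.91 (adjusted p = 0.00231). Cdkn2c, an inhibitor of Cdk4 and Cdk6, rose by 2.66 (adjusted p = 0.00342) and 2.01 (adjusted p = 0.00964). Of the D-type cyclins, which carry growth signals into the cycle, Ccnd1 fell by 2.25 in IRF8 KO and by 2.36 with a tumor. Ccnd2 fell by 3.46 in IRF8 KO and, being undetected with a tumor, was at least 10.8-fold lower there. Ccnd3, picked after its values were seen, rose by 1.20 (adjusted p = 0.00553) and 1.16 (adjusted p = 0.00622). Cdc25a, a phosphatase that activates Cdk2, rose in IRF8 KO by 3.26 (adjusted p = 0.00169) and was lower with a tumor than in IRF8 KO by 2.23 (adjusted p = 0.0181). Of 16 tested G2 and M phase genes, 13 rose and 0 fell in each comparison, with Top2a, a chromosome untangling enzyme, higher by 4.94 and 4.42.

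Other transcripts moved with the S phase genes. All 7 tested granulocyte precursor genes rose in IRF8 KO and 6 rose with a tumor. They were Mpo, Elane, Prtn3, Ctsg and Ms4a3, and Cebpe and Gfi1, which encode transcription factors. Their summed linear level was 1706 and 1576 in wild type, 60091 and 16946 on KO arrays 1 and 2, and 11000.4 and 12830.5 with a tumor. Cebpe made up much of the sum on KO array 2, at 12424.5, and did not differ in level between the KO arrays as the others did. Without Cebpe and Gfi1, a choice made after seeing the data, the sums were 242 and 222 in wild type, 47207.5 and 3977 on KO arrays 1 and 2, and 6976 and 10446 with a tumor. KO array 1 was the highest either way, and KO array 2 lay below both tumor arrays only without those genes. Mpo, the myeloperoxidase gene, had raw signals of 19227 and 2369.2 on KO arrays 1 and 2, against 139.3 and 115.4 in wild type. The 8 tested mature neutrophil genes summed to between 88616 and 108061 on the 6 arrays, with KO array 1 the lowest. Of these 8, 1 rose and 2 fell in IRF8 KO, and 2 rose and 2 fell with a tumor. Differences over these 8 ran from -2.25 to 2.06 in IRF8 KO, with a median of 0.06. With a tumor they ran from -2.08 to 1.70, with a median of 0.15, so the list moved in both directions. Among those that fell, Csf3r, the G-CSF receptor gene, was lower by 2.25 and 2.08, and Cxcr2, a chemokine receptor gene of mature neutrophils, by 2.06 and 1.06. The part of precursor transcripts in the S phase result was not tested.

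Markers of other cells differed between the groups too. The 10 tested monocyte and macrophage genes all fell in IRF8 KO, and with a tumor 8 fell and 2 rose, with summed levels of 11965 and 10352 in wild type, 827 and 724 in IRF8 KO and 2671 and 3638 with a tumor. The 11 erythroid precursor genes with a probe, 6 of them tested, summed to 443 and 429.6 in wild type, 779 and 451 in IRF8 KO and 5407 and 1722 with a tumor. In IRF8 KO 0 of the 6 rose, and with a tumor 4 did, led by Alas2 of heme synthesis at 4.81 (adjusted p = 0.00137). Klf1, an erythroid defining gene, was detected on no array. AT-3 array 1 had the higher erythroid sum of the pair. Of 3 tested stem and progenitor genes, 1 rose in IRF8 KO and 0 with a tumor. The one that rose was Kit, a receptor of progenitors, by 2.96 (adjusted p = 0.0266), with raw signals of 1478.2 and 1119.7 on the KO arrays. T cell genes with a probe summed to 383 and 450 in wild type, 407 and 925 on KO arrays 1 and 2, and 365 and 245 with a tumor. For B cell and plasma cell genes the sums were 296 and 388, 590 and 744, and 294 and 257 in that order. For megakaryocyte genes they were 206 and 216, 229 and 267, and 174 and 177. The part of these cell types in the S phase result was not tested.

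**Figure D4:**
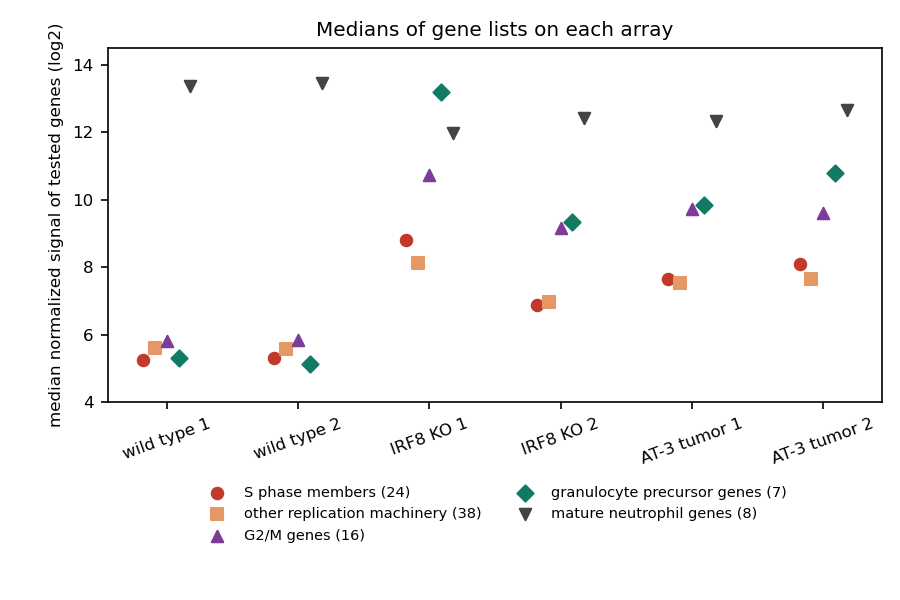
Median normalized log2 signal (y axis) of the tested genes of 5 lists on each of the 6 arrays (x axis). S phase members, other replication machinery, G2/M genes and granulocyte precursor genes are lowest on the wild type arrays and highest on IRF8 KO array 1, while mature neutrophil genes are lowest there. The mature neutrophil genes moved in both directions, with median gene differences from wild type of 0.06 in IRF8 KO and 0.15 with a tumor.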

How the data were processed

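Splenic CD11b+Gr-1high cells, sorted to over 97% purity per the labels' protocols, were profiled on 6 Illumina bead arrays, 2 per group. The deposited intensity of each probe is on a linear scale and was not normalized between arrays, per the file headers, and a deposited detection p-value beside it sets the probe against that array's negative controls. The software was GenomeStudio, per the submitters' processing notes. A second deposited table holds log2 values, which equal quantile-normalized log2 intensities without background correction.

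Intensities were background corrected and quantile normalized with neqc (limma 3.58.1, R 4.3.3, offset 16). Probes detected at p under 0.05 on at least 2 arrays were kept, 17631 of 45281, and the probe with the highest mean stood for a gene. Symbols came from the platform annotation: 34885 probes had 1 symbol, 18 several and 10378 none. Group means were fitted to all 6 arrays with lmFit and eBayes, adjusted by Benjamini-Hochberg over 12492 features, and called at 0.05. The fit was tested on simulated data. Where neither array of the dimmer group detected a probe, the fold is the brighter group's mean over, per array, the higher of the lowest detected signal and the probe's own, given as "at least". The number of arrays limits the precision.

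The members, gene lists and named genes (all 30 members, and in each further list only genes among the top 3 called in either direction against wild type, plus cell type markers, with exceptions named) were chosen with earlier results of these data known. The labels share replicate numbers 1 and 2 but tie them to no shared experiment, so the main fit has no block.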

Additional observations from a re-analysis of the deposited data

How the results depend on the processing

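The 16 and 17 members called higher in IRF8 KO and with an AT-3 tumor were 8 and 9 without background correction and with the authors' log2 values, which are the same numbers. They were 7 and 8 of 30 with no detection filter, 8 and 8 of the 10 members left when every array had to detect a probe, and 7 and 8 at adjusted p under 0.01. Fitting only the 4 arrays compared gave 11 and 22. Over all features, 31.9% and 34.9% were called in the fit reported, and 30% and 39.9% with only those 4 arrays. With no detection filter the shares were 11.1% and 12.5%. The share over all features also moved in fits with 1 array left out, which assume that a lone array varies like the other groups. Counts from those fits, given next as ranges, thus carry no weight on their own. Leaving out 1 array at a time gave 5 to 24 members in IRF8 KO and 6 to 22 with a tumor. Between AT-3 tumor and IRF8 KO it gave 0 to 10 higher and 0 to 3 lower members. Without scaling between arrays 3 members were lower with a tumor than in IRF8 KO, among them Fen1 at -1.10 (adjusted p = 0.0391), which was 0.15 with scaling. The median of all features then stood at 0.20, -0.44 and -0.83 for IRF8 KO and AT-3 tumor against wild type and AT-3 tumor against IRF8 KO, and the share of calls that were higher at 64.6%, 13.1% and 4.81%, against 48.2%, 49.5% and 53.6% in the fit reported. With the medians of detected probes set equal, those medians were 0.15, 0.06 and -0.27 and the shares 60.3%, 37.0% and 21.1%. No member was called lower than wild type under any alternative run. The cause of these changes was not tested.

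With the replicate number as a block, 17 members were higher in IRF8 KO, 17 with a tumor and 0 differed between those groups. Deviations of same-numbered arrays correlated at 0.09 for wild type and IRF8 KO and at -0.06 for wild type and AT-3 tumor. The correlation was 0.01 for IRF8 KO and AT-3 tumor. Whether same-numbered arrays came from a shared experiment is not given in the labels and was not tested. The array slide as a block was not run, because the headers used here name no slide. Groups of 2 arrays are too small for an outlier test. Ccne1 and Dut lay near background, where small differences cannot be measured well.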
